A study of Danio rerio with 12 samples.

Results

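The gene fkbp5 (ENSDARG00000028396) was followed in the brain of every fish of the series. It was found by its gene ID, which is 1 of 32520 IDs in each deposited table, and it was measured in all 12 brains. RNA-Seq was performed on whole brains of adult male zebrafish to find which transcripts depend on the glucocorticoid receptor (GR), with 1 poly(A)-selected library per fish. The 6 GR-mutant fish were homozygous for gr s357 (gr s357/s357), a missense allele of nr3c1 that changes the receptor protein. The 6 wild-type fish (gr +/+) were their siblings from crosses of heterozygous parents. All 12 were 22 months old and untreated and were sampled in the morning, and each brain was taken with its olfactory bulbs and pituitary. GR-mutant and wild-type fish lived in different tanks, and tank and genotype cannot be told apart. GR-mutant libraries are numbered 1 to 6, and wild-type libraries 1 to 5 and 7.

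fkbp5 encodes FKBP51, a peptidyl-prolyl isomerase that serves as a co-chaperone of HSP90. In mammals it joins the HSP90 complex that holds the unliganded receptor in the cytoplasm and lowers the affinity of that complex for hormone, while the related co-chaperone FKBP52 (fkbp4) favours entry of the receptor into the nucleus. Mammalian FKBP5 is itself switched on by the hormone-bound receptor and so forms a short feedback loop, and its transcript is widely used as a readout of glucocorticoid action in brain and blood.

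Depth was alike in both genotypes. The reads recovered from the deposited values numbered 24809137 to 36313866 in GR-mutant libraries and 24407683 to 37548901 in wild-type libraries. Over all genes, 3523 of the 20114 tested were called by limma (Benjamini-Hochberg adjusted p under 0.05), which is 17.5%. Of these, 1996 (9.92%) were lower and 1527 (7.59%) were higher in GR-mutant brains. The mitochondrial genome gave 6.60% to 7.22% of counts in GR-mutant libraries and 6.07% to 10.1% in wild-type libraries, and wild-type 1 held the highest share. Levels below are normalised counts, that is reads per gene divided by the size factor of the library, and they are not corrected for transcript length, so they are compared between brains and never between genes.

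fkbp5 was far lower in every GR-mutant brain than in any wild-type brain. Its level was 413.9, 304.1, 1989.8, 713.8, 345.0 and 543.3 normalised counts in GR-mutant brains 1 to 6. In wild-type brains 1, 2, 3, 4, 5 and 7 it was 12171.3, 15938.4, 28408.0, 26581.9, 20475.5 and 18322.5 normalised counts. The genotypes did not overlap, and the lowest wild-type brain stood 6.12 times above the highest GR-mutant brain. Over all tested genes, 4.92% were lower in GR-mutant brains without overlap.

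The means were 718 ± 640 normalised counts in GR-mutant brains and 20316 ± 6233 in wild-type brains (SD, n = 6 each). The mean in wild-type brains was 28.3 times that in GR-mutant brains. On the log2 scale fkbp5 fell by 5.10 (SE 0.38, limma, Benjamini-Hochberg adjusted p = 1.49e-06), and the geometric means differed 34.3-fold. This was the 9th largest fall among all tested genes, and fkbp5 stood 50th when the genes were ordered by p. An exact two-sided permutation test of the difference over all 924 assignments of the brains gave p = 0.00216, the smallest value that this design allows. fkbp5 RNA was not absent from GR-mutant brains, since between 315 and 2410 reads were counted there per library, against 9729 to 23497 in wild-type libraries. In whole brains, fewer fkbp5-expressing cells and less fkbp5 RNA per cell cannot be told apart.

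**Figure D1:**
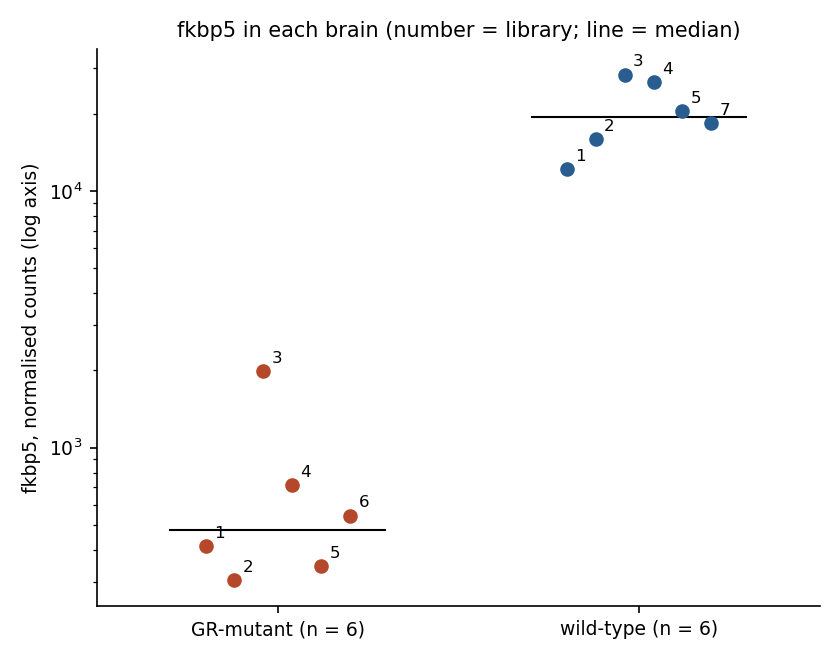
Normalised counts of fkbp5 (log axis) in each of the 6 GR-mutant brains (left) and 6 wild-type brains (right), each point numbered by its library, with a line at the median of the genotype (479 and 19399). The groups do not overlap, and GR-mutant 3 lies apart from the other GR-mutant brains.

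The highest GR-mutant brain had 6.54 times the level of the lowest, against 2.33 times in wild-type brains. The coefficient of variation was 89.2% in GR-mutant brains and 30.7% in wild-type brains, where counting reads alone gives 4.46% and 0.75%. The SD on the log2 scale was 0.99 in GR-mutant brains, larger than that of 96.0% of tested genes, and 0.46 in wild-type brains, larger than that of 82.1%. The spreads were not tested against each other, and without GR-mutant 3 the SD in GR-mutant brains was 0.50.

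GR-mutant 3 carried most of the spread in its group. Its 1989.8 normalised counts compare with 713.8 in the next highest GR-mutant brain, yet it remained far below every wild-type brain. Without it, fkbp5 fell by 5.46 on the log2 scale (SE 0.25, limma). The other glucocorticoid-induced genes were not raised to a like extent in this brain. Over the 36 such genes described below, GR-mutant 3 differed from the mean of the other GR-mutant brains by a median of 0.08 on the log2 scale and was the highest of the 6 brains for 6 genes, or 16.7%, beside 18.2% of all tested genes. GR-mutant 2 was the highest for 13, or 36.1%, beside 19.4% of all tested genes, with a median difference of 0.05. tsc22d3, for example, had 849.6 normalised counts in GR-mutant 3 and 796.2 to 1006.4 across the genotype. klf9, in contrast, was highest in GR-mutant 3, at 117 normalised counts against 58.3 to 108 in the other GR-mutant brains.

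Pituitary RNA was also most abundant in GR-mutant 3. The 10 tested pituitary markers summed to 87438 normalised counts there, against 400.3 to 42538 in the other GR-mutant brains and 6812 to 46126 in wild-type brains. smtla was at 0 in 4 GR-mutant and 6 wild-type brains, and 1 copy of CGA was at 0 in 1 GR-mutant brain. GR-mutant 5 had the next highest pituitary sum and 1 of the lowest fkbp5 levels, 345.0 normalised counts. oxt, which encodes the fish form of oxytocin, was lowest in GR-mutant 3, at 1237.6 normalised counts against 13537 to 23757 in the other GR-mutant brains and 4743 to 9844 in wild-type brains. The other GR-mutant brains thus lay above every wild-type brain for oxt, and GR-mutant 3 lay below every one. The part of these measures in the fkbp5 level of GR-mutant 3 was not tested.

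nr3c1, the gene that carries the allele, did not follow the fall of fkbp5. It had 4669.5 to 4954.6 normalised counts in GR-mutant brains (median 4837.3) and 4106.6 to 4567.2 in wild-type brains (median 4310.5). The ranges did not overlap, as for 3.35% of tested genes with the GR-mutant brains higher, and nr3c1 was higher in GR-mutant brains by 0.15 on the log2 scale (SE 0.04, limma, adjusted p = 0.0160). Its Pearson correlation with fkbp5 was 0.18 within GR-mutant brains and -0.61 within wild-type brains (exact permutation p = 0.796 and 0.201, n = 6 each). Without GR-mutant 2 and 3, the brains farthest from the median of fkbp5, it was -0.90. Without wild-type 1 and 3 it was -0.75, so no difference in sign between genotypes is read from these values. Since the allele is a missense change, the nr3c1 level does not check the genotype labels.

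In the RefSeq gene order of assembly GRCz12tu fkbp5 lies after entpd8, rab44 and srsf3a and before slc6a22.1, slc6a22.2 and opn1mw1. rab44, which encodes a Rab GTPase, had 124 to 206 normalised counts in GR-mutant brains and 203 to 490 in wild-type brains. These ranges overlapped slightly, and rab44 fell by 1.06 on the log2 scale (SE 0.22, limma, adjusted p = 0.00504). slc6a22.1, a member of the SLC6 transporter family, averaged 890 ± 92.6 normalised counts in GR-mutant brains and 1005 ± 73.5 in wild-type brains (SD, n = 6 each; limma, adjusted p = 0.118). entpd8 and slc6a22.2 were not called either (limma, adjusted p = 0.504 and 0.757). srsf3a, whose span overlaps that of fkbp5 in that annotation, had no read in any brain, and opn1mw1 had at most 1 read per library.

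In the deposited tables SRSF3 (ENSDARG00000025397), a splicing factor gene, stands 3 lines before fkbp5. It had 54.8 to 77.6 normalised counts in GR-mutant brains and 99.0 to 118 in wild-type brains, without overlap, and fell by 0.67 on the log2 scale (limma, adjusted p = 0.00159). The ID on the line before fkbp5, ENSDARG00000102957, has no name in the tables used here. Both were singled out after their values were seen. ENSDARG00000102957 had 0, 0, 3.30, 0, 1.1 and 0.81 normalised counts in GR-mutant brains 1 to 6, and 22.5, 18.9, 50.2, 31.7, 42.1 and 33.3 in wild-type brains 1, 2, 3, 4, 5 and 7. The genotypes did not overlap, and GR-mutant 3 and wild-type 3, which had the most fkbp5 in their genotypes, were also highest here. At most 4 reads were counted in any GR-mutant library and 18 to 43 in wild-type libraries (limma, adjusted p = 1.65e-05). A gene was tested only if it reached 10 normalised counts in 6 or more libraries. No GR-mutant brain reached that level for this ID, so it was tested only because every wild-type brain did. The filter thus fixed the lack of overlap, and nothing is read from it or from the limma p of this ID. The sources used here give no strand setting for the counting, so reads of this ID and of fkbp5 may not be separable if the 2 overlap.

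To find the genes whose levels follow fkbp5, Pearson's r with fkbp5 was computed on log2(normalised count + 1) for each of the other 20113 tested genes, separately in the 6 brains of each genotype. In GR-mutant brains 87 genes (0.433%) had an r of at least 0.9 and 85 (0.423%) an r of at most -0.9. In wild-type brains these numbers were 153 (0.761%) and 162 (0.805%). With any other tested gene in the place of fkbp5, the median number at 0.9 or more was 164 in either genotype, so fkbp5 had no more followers than a typical gene. Its number exceeded that of 7.34% of genes in GR-mutant brains and 44.5% in wild-type brains.

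No single gene passed the correction for the 20113 relations in either genotype. With 6 brains the smallest p that the 720 pairings can give is 0.00139, and the smallest Benjamini-Hochberg adjusted exact permutation p of r was 1.00 in GR-mutant brains and 0.716 in wild-type brains. For Spearman's rho it was 1.00 and 0.847. Unadjusted, 620 genes (3.08%) had an exact permutation p of r under 0.05 in GR-mutant brains and 1090 (5.42%) in wild-type brains. The followers named below are therefore a description of these brains, ordered by likeness, and no single relation passed a test.

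None of the 87 positive followers in GR-mutant brains was among the 153 in wild-type brains. As the lists hold 0.433% and 0.761% of the tested genes, nothing is read from the absence of an overlap. The GR-mutant followers had a median r of 0.07 in wild-type brains, against 0.00 for all tested genes. The wild-type followers had a median r of 0.06 in GR-mutant brains, against 0.01 for all tested genes. Of the negative followers 2 were shared, BMI1 (ENSDARG00000013076) and polr2h, which is 2.35% of the GR-mutant and 1.23% of the wild-type list. The difference in r between genotypes was not tested for any gene.

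Within wild-type brains the closest positive followers were pemt, gpr108, cabz01033180.1, dtx3, SERTAD2 (ENSDARG00000055530) and fam107b, with r from 0.97 to 0.99. SERTAD2, a transcriptional co-regulator, had 478.0, 451.6, 486.3, 491.3, 500.5 and 502.0 normalised counts in GR-mutant brains 1 to 6. In wild-type brains 1, 2, 3, 4, 5 and 7 it had 970.8, 1106.6, 2233.8, 1965.0, 1547.6 and 1449.9. It was nearly flat in GR-mutant brains, GR-mutant 3 included (r = 0.28, rho = 0.31, exact permutation p = 0.525 and 0.564), whereas its order across the wild-type brains was that of fkbp5 in every place (r = 0.99, rho = 1.00, exact permutation p = 0.00278 for both). Without wild-type 1 and 3, the brains farthest from the median of fkbp5, r was 0.97. SERTAD2 fell by 1.61 on the log2 scale in GR-mutant brains (SE 0.17, limma, adjusted p = 2.86e-05), without overlap.

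pemt, which makes phosphatidylcholine from phosphatidylethanolamine, had an r of 0.99 and a rho of 0.94 (exact permutation p = 0.00278 and 0.0167). dtx3, an E3 ubiquitin ligase of the Deltex family, had an r of 0.99 and a rho of 1.00 (exact permutation p = 0.00139 and 0.00278). Both fell in GR-mutant brains, pemt by 0.45 and dtx3 by 0.69 on the log2 scale (limma, adjusted p = 0.0172 and 8.85e-05). gpr108 followed fkbp5 as closely within wild-type brains (r = 0.99, rho = 1.00, exact permutation p = 0.00139 and 0.00278) but was higher in GR-mutant brains, at 1623 ± 175 normalised counts against 1209 ± 32.9 in wild-type brains (SD, n = 6 each; limma, adjusted p = 0.000757). gpr108 ranged only from 1166 to 1251 normalised counts in wild-type brains, on 932 to 1480 reads. Counting reads alone gives a spread of about this size, so nothing is read from the r of gpr108. The closest negative followers in wild-type brains were gskip, whose product binds the kinase GSK3B, lix1, and galnt11, which starts mucin-type O-glycosylation, with r of -0.995, -0.995 and -0.992 and an exact permutation p of 0.00139 each.

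**Figure D2:**
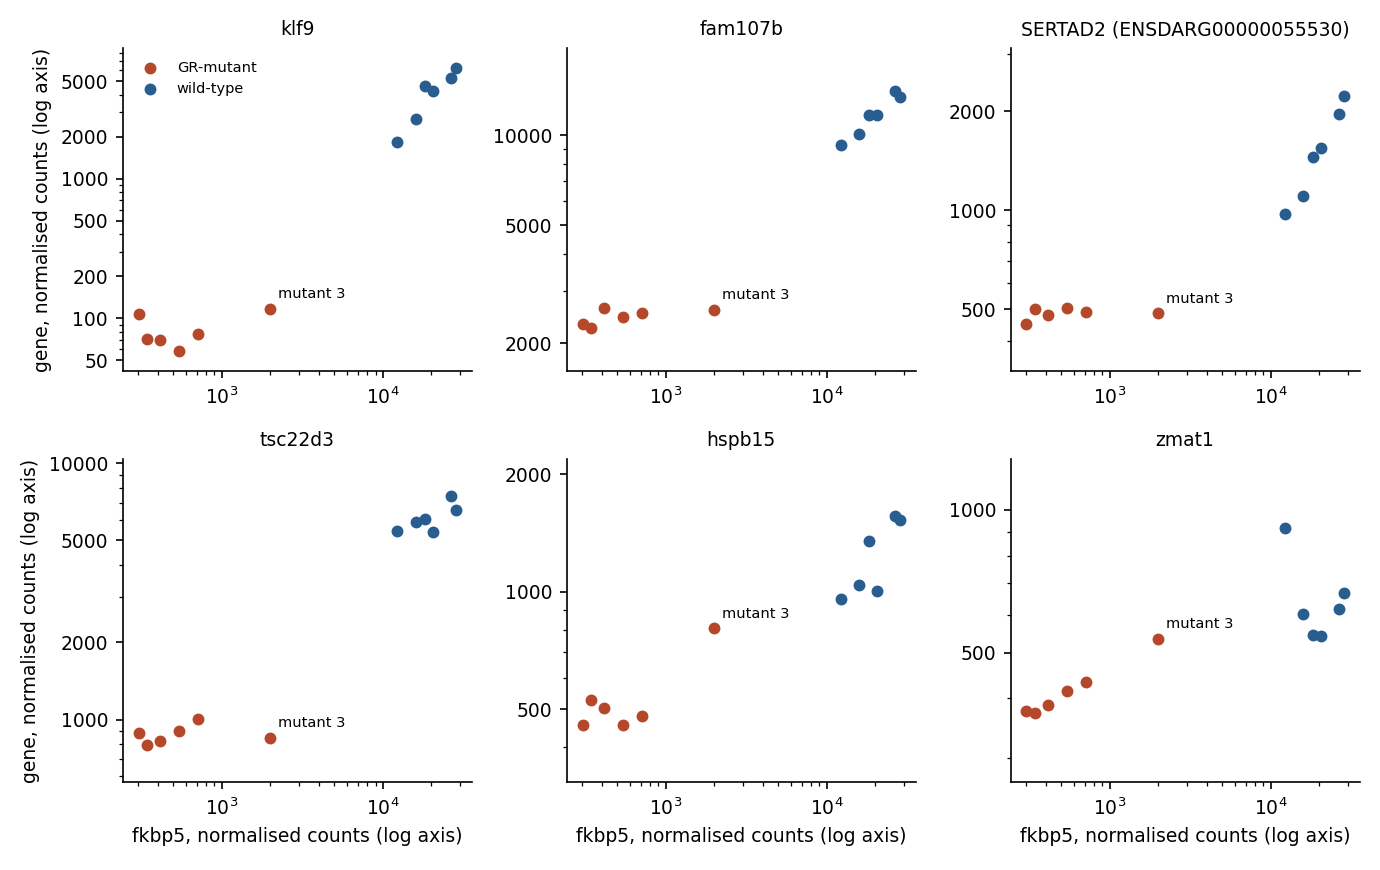
Normalised counts of 6 genes (vertical log axes) against those of fkbp5 (horizontal log axis) in 6 GR-mutant and 6 wild-type brains, 1 point per brain, with GR-mutant 3 marked. klf9, fam107b and SERTAD2 climb with fkbp5 most steadily among wild-type brains (r of 0.43, 0.61 and 0.28 within GR-mutant and 0.95, 0.97 and 0.99 within wild-type brains). klf9, hspb15 and zmat1 are highest in GR-mutant 3 among the GR-mutant brains.

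Genes known to be induced by glucocorticoids in vertebrates were examined as a list of 36 tested genes. Where several IDs shared a symbol, all of them entered by name, so a given copy may not itself be known to be induced. This list, like the other lists below, was drawn up with earlier results of these data known. Some members, such as fam107b, klf9 and tsc22d3, are among the genes that the paper names for the smallest adjusted p. The counts are therefore a description and no independent test. In GR-mutant brains 20 of them were lower and 2 higher, beside 9.92% and 7.59% of all tested genes, and the median difference was -0.46 on the log2 scale against 0.01 over all tested genes. Within GR-mutant brains 17 of the 36 had a positive r with fkbp5 and 7 an r of at least 0.5, with a median of -0.02. Within wild-type brains 31 had a positive r and 24 an r of at least 0.5, with a median of 0.63. Over all tested genes the share at 0.5 or more was 14.4% in GR-mutant and 17.9% in wild-type brains.

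The wild-type pattern rested in part on the extremes. Without wild-type 1 and 3 the median r of the list was 0.33, and without wild-type 1 alone it was 0.42. Wild-type 1 had the least fkbp5 and the highest mitochondrial share, and it was the lowest wild-type brain for 15 of the 36 genes (41.7%), beside 22.3% of all tested genes. Wild-type 3 had the most fkbp5 and was the lowest for none, beside 15.6% of all tested genes. The part of the mitochondrial share in this pattern was not tested. The genes that fell did not stand apart in wild-type brains, where the 20 called lower had a median r of 0.65, the 14 not called a median of 0.51 and the 2 called higher a median of 0.48.

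klf9, a transcription factor that is a direct target of the receptor in mammals, followed fkbp5 closely in wild-type brains. It had 70.5, 108, 117, 77.3, 71.2 and 58.3 normalised counts in GR-mutant brains 1 to 6 and 1828, 2678, 6218, 5292, 4294 and 4612 in wild-type brains 1, 2, 3, 4, 5 and 7. The genotypes did not overlap, and wild-type 1 and 2 were low and wild-type 3 and 4 high for klf9 as for fkbp5. klf9 fell by 5.54 on the log2 scale (SE 0.27, limma, adjusted p = 3.07e-08). Its r with fkbp5 was 0.43 in GR-mutant brains (rho = 0.20, exact permutation p = 0.436 and 0.714). In wild-type brains it was 0.95 (rho = 0.94, exact permutation p = 0.00278 and 0.0167, and r = 0.83 without wild-type 1 and 3).

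fam107b, of the FAM107 family whose member FAM107A is a stress-responsive actin regulator in mammals, had the highest r of the list, 0.97 in wild-type brains (rho = 0.94, exact permutation p = 0.00417 and 0.0167), and this was also 0.97 without wild-type 1 and 3. It had 2255 to 2634 normalised counts in GR-mutant brains and 9284 to 14065 in wild-type brains, without overlap. nfkbiab, which encodes an inhibitor of NF-kappa-B, had an r of 0.94 in wild-type brains (rho = 0.77, exact permutation p = 0.0125 and 0.103). It had 1166 to 1437 normalised counts in GR-mutant brains, against 3814 to 5287 in wild-type brains. tsc22d3, which encodes the glucocorticoid-induced leucine zipper GILZ, had the smallest p of the list in the comparison of genotypes, since it fell by 2.80 on the log2 scale (SE 0.08, limma, adjusted p = 1.1e-10), and its r with fkbp5 in wild-type brains was 0.75 (rho = 0.60, exact permutation p = 0.0917 and 0.242).

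Other members showed that a fall in GR-mutant brains and likeness to fkbp5 came apart. PER1 (ENSDARG00000056885), a clock gene, fell by 1.51 on the log2 scale (limma, adjusted p = 2.72e-05) with an r of 0.20 in wild-type brains (exact permutation p = 0.715). FOXO1 (ENSDARG00000061549), a transcription factor of fasting and insulin response, had an r of 0.83 in wild-type brains (exact permutation p = 0.0486) and was not called (limma, adjusted p = 0.901). This copy was low, at no more than 46.4 normalised counts in wild-type and 50.4 in GR-mutant brains, so counting error weighs on its r. Both copies of KLF11, a Krüppel-like factor, were higher in GR-mutant brains, by 0.97 and 1.06 on the log2 scale (limma, adjusted p = 0.00205 and 0.0035). In GR-mutant brains ZBTB16 (ENSDARG00000007184) and mertka, a phagocytosis receptor, had r of 0.91 and 0.90 with fkbp5 (exact permutation p = 0.00139 and 0.00972), and neither was called between genotypes (limma, adjusted p = 0.0874 and 0.140).

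**Figure D3:**
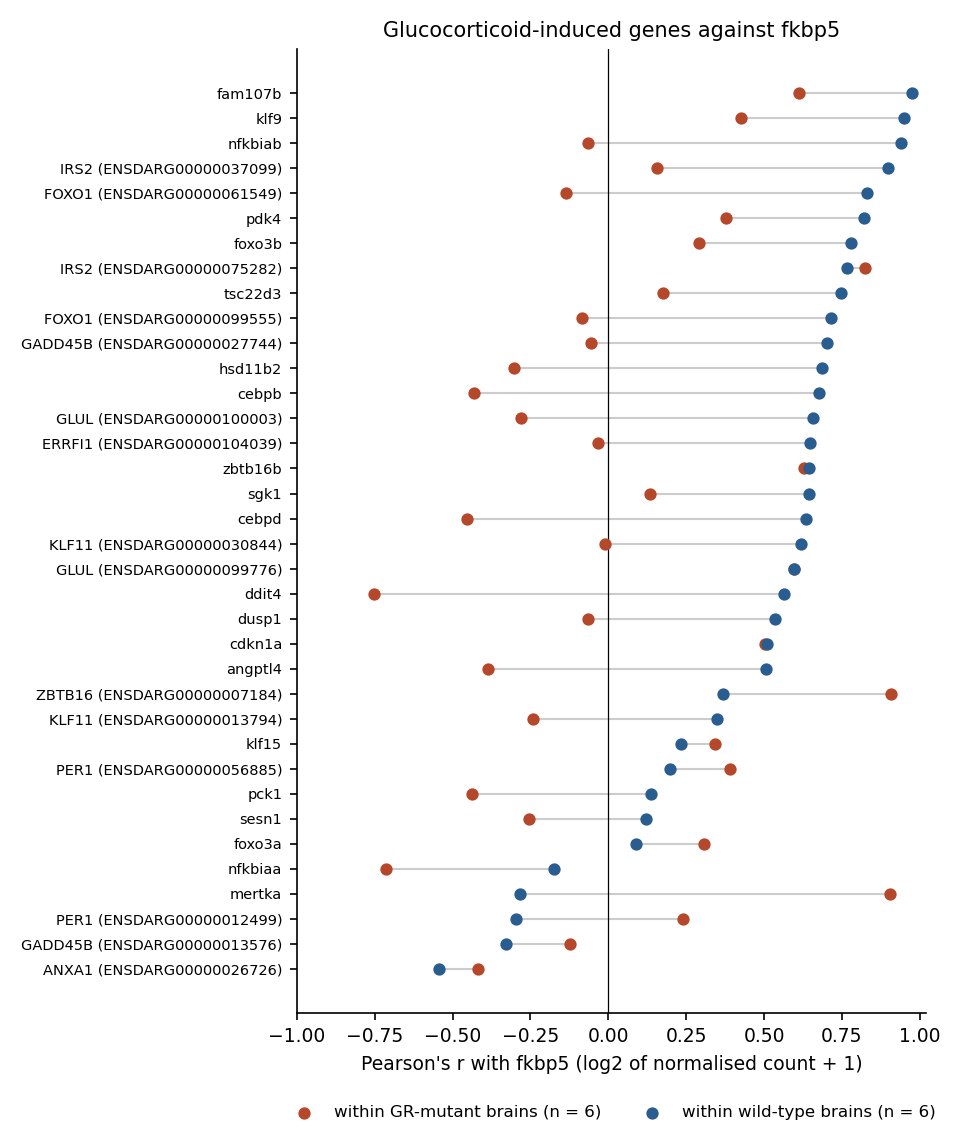
Pearson's r with fkbp5 on log2(normalised count + 1) for each of the 36 tested glucocorticoid-induced genes, within the 6 GR-mutant brains and within the 6 wild-type brains, ordered by the wild-type value. The GR-mutant points are positive for 17 genes and the wild-type points for 31.

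The genes that followed fkbp5 most closely in wild-type brains included many that were lower in GR-mutant brains. Of the 87 GR-mutant followers at r of at least 0.9, 9 (10.3%) were lower and 5 (5.75%) higher in GR-mutant brains. Of the 153 genes with r of at least 0.9 in wild-type brains, 51 (33.3%) were lower and 7 (4.58%) higher in GR-mutant brains, beside 9.92% and 7.59% of all tested genes. Of the 162 genes with r of at most -0.9 there, 16 (9.88%) were lower and 14 (8.64%) higher. In bins of r within GR-mutant brains the share called lower was nearly flat, with 7.72% to 11.1% of genes in every bin. The share called higher there ran from 5.57% (r of -0.6 to -0.4) to 10.3% (r of 0.6 to 0.8). In bins of r within wild-type brains, 23.5% of the 599 genes from 0.8 to 1.0 and 15.1% of the 1807 from 0.6 to 0.8 were lower, against 6.09% of the 591 from -1.0 to -0.8. The share called higher was 4.17% from 0.8 to 1.0 and 9.81% from -1.0 to -0.8.

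**Figure D4:**
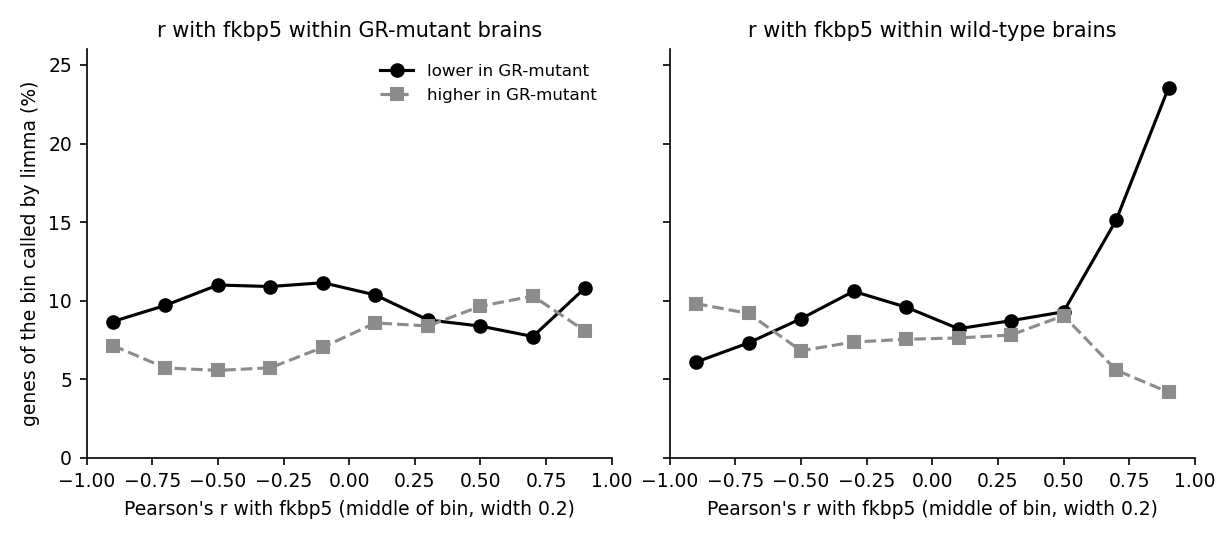
Percentage of tested genes that limma called lower (black, solid) or higher (grey, dashed) in GR-mutant brains, in bins of Pearson's r with fkbp5 within GR-mutant brains (left panel) and within wild-type brains (right panel). The share called lower stays between 7.72% and 11.1% over the GR-mutant bins and reaches 23.5% in the highest wild-type bin.

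Many followers in either genotype rested on the extreme brains. Without GR-mutant 2 and 3, the brains farthest from the median of fkbp5, 22 of the 87 GR-mutant followers still had an r of at least 0.9, with a median of 0.79. Without wild-type 1 and 3, 70 of the 153 wild-type followers did so, with a median of 0.89.

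Within GR-mutant brains the closest positive followers were zmat1, GTF2H2C (ENSDARG00000016514), ccnjl, pard3bb, trim33 and lypla2, with r from 0.97 to 0.996. Of these, lypla2 ranged only from 2484 to 2533 normalised counts, on 2107 to 3089 reads. Its SD of 17.4 is below what counting reads alone gives, so nothing is read from its r. ccnjl, on 96 to 164 reads, had an SD of 11.2 on a mean of 116 normalised counts, about what counting alone gives. For the other positive followers counting error was not separated from the spread. zmat1, a zinc finger gene, had 387.7, 375.6, 535.0, 434.2, 372.4 and 413.8 normalised counts in GR-mutant brains 1 to 6. In wild-type brains 1, 2, 3, 4, 5 and 7 it had 915.8, 602.4, 668.9, 617.7, 542.0 and 545.2. GR-mutant 3 and 4 were highest for zmat1 and for fkbp5 (r = 0.996, rho = 0.94, exact permutation p = 0.00278 and 0.0167), and r was 0.998 without GR-mutant 2 and 3. In wild-type brains the r of zmat1 was -0.48 (exact permutation p = 0.351), but 0.30 without wild-type 1 and 3.

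The other GR-mutant followers were a subunit gene of the transcription factor TFIIH (GTF2H2C), a cyclin J-like gene (ccnjl), a cell polarity gene (pard3bb), a ubiquitin ligase gene of TGF-beta signalling (trim33) and an acyl-protein thioesterase gene (lypla2). Of all 6, zmat1 and lypla2 fell, by 0.61 and 0.40 on the log2 scale (limma, adjusted p = 0.00582 and 0.00472), and the other 4 were not called. The closest negative followers were zgc:86598, paics, an enzyme of purine synthesis, and si:ch211-136m16.8, with r of -0.98, -0.98 and -0.98 (exact permutation p = 0.00278, 0.00139 and 0.00139). pomcb, a prohormone gene of the POMC family, had an r of -0.96 in GR-mutant brains (exact permutation p = 0.00278) and -0.53 in wild-type brains (exact permutation p = 0.288).

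The genes most like fkbp5 in both genotypes at once were pitpnb, mxi1, nbeal1, tjp1b, hspb15, fryl, TNIK (ENSDARG00000056218) and abhd3. Their smaller r of the 2 genotypes lay between 0.80 and 0.89. Without GR-mutant 2 and 3, r in GR-mutant brains ran from -0.75 (hspb15) to 0.96 (tjp1b). Without wild-type 1 and 3, r in wild-type brains ran from 0.28 (nbeal1) to 0.90 (mxi1). mxi1, a partner of MAX that opposes MYC, had an r of 0.92 in GR-mutant brains and 0.86 in wild-type brains (exact permutation p = 0.00417 and 0.0208). It fell by 0.56 on the log2 scale (limma, adjusted p = 0.00708), with 3551 to 3932 normalised counts in GR-mutant brains and 3628 to 6795 in wild-type brains, which overlapped.

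hspb15, a small heat shock protein gene, was chosen by its r with fkbp5. Its high level in GR-mutant 3 is part of that r and no further likeness. It had 504.2, 456.2, 805.8, 480.6, 527.9 and 454.2 normalised counts in GR-mutant brains 1 to 6 and 958.3, 1041.5, 1531.0, 1568.0, 1004.7 and 1349.3 in wild-type brains 1, 2, 3, 4, 5 and 7. GR-mutant 3 was the highest of its genotype and below every wild-type brain. hspb15 fell by 1.21 on the log2 scale (SE 0.16, limma, adjusted p = 0.000261). Its r with fkbp5 was 0.84 in GR-mutant brains and 0.83 in wild-type brains (exact permutation p = 0.107 and 0.0542), and the GR-mutant value was -0.75 without GR-mutant 2 and 3, so it rested on those brains. The genes least like fkbp5 in both genotypes were polr2h, a subunit of the RNA polymerases, mthfd2l, usf1l and lhx5, with r of -0.83 to -0.92 in GR-mutant brains and -0.85 to -0.92 in wild-type brains. Without the 2 farthest brains of each genotype, polr2h had r of -0.76 and -0.88, and mthfd2l -0.75 and -0.90. usf1l then had r of 0.33 in GR-mutant and -0.31 in wild-type brains, and lhx5 0.16 and -0.42, so these 2 genes rested on those brains.

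Of 28 tested genes of the receptor complex and its chaperones 15 were lower and 2 higher in GR-mutant brains, beside 9.92% and 7.59% of all tested genes. Their median r with fkbp5 was -0.18 in GR-mutant and 0.02 in wild-type brains (0.10 and 0.12 without the 2 brains of each genotype farthest from the median of fkbp5). HSP90AA1 (ENSDARG00000024746), an inducible form of HSP90, had 1828 to 2733 normalised counts in GR-mutant brains and 6358 to 8120 in wild-type brains, without overlap. It fell by 1.78 on the log2 scale (SE 0.08, limma, adjusted p = 2.37e-08). Its r with fkbp5 was -0.15 in GR-mutant brains and 0.13 in wild-type brains (exact permutation p = 0.75 and 0.815). HSPA4 (ENSDARG00000004754), a co-factor of HSP70, PTGES3 (ENSDARG00000037284), the co-chaperone p23, and the J-domain gene dnaja1 also fell without overlap, by 1.01, 0.96 and 0.70 on the log2 scale (limma, adjusted p = 2.48e-06, 0.000306 and 0.00072). The other copies, HSPA4 (ENSDARG00000018989) and PTGES3 (ENSDARG00000089626), were not called (limma, adjusted p = 0.696 and 0.119). Nor was hsp90ab1, another HSP90 gene (limma, adjusted p = 0.164).

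The median r of the receptor complex list was -0.18 in GR-mutant brains and 0.02 in wild-type brains, against 0.01 and 0.00 over all tested genes. fkbp4, whose product FKBP52 competes with FKBP51 for HSP90, had 3027 to 4030 normalised counts in GR-mutant brains and 3893 to 5595 in wild-type brains. These ranges overlapped, and fkbp4 fell by 0.42 on the log2 scale (SE 0.09, limma, adjusted p = 0.00505). Its r with fkbp5 was -0.41 in GR-mutant brains and -0.54 in wild-type brains (exact permutation p = 0.444 and 0.242). Without the 2 brains of each genotype farthest from the median of fkbp5 it was 0.39 and -0.08, so the negative sign rested on those brains. ppp5c, a phosphatase that binds HSP90 through the same kind of repeats, had an r of -0.65 in GR-mutant brains (exact permutation p = 0.192) and of 0.85, the highest of the list, in wild-type brains (exact permutation p = 0.0278). Without the 2 farthest brains of each genotype its r was 0.94 and 0.90, so the negative sign in GR-mutant brains rested on GR-mutant 2 and 3. The mineralocorticoid receptor gene nr3c2 was higher in GR-mutant brains by 0.62 on the log2 scale (limma, adjusted p = 0.0245), with overlapping levels.

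Of the 16 other tested FKBP genes 3 were lower and 1 higher in GR-mutant brains by limma (4 and 1 by DESeq2), beside 9.92% and 7.59% of all tested genes. Nothing is read from these counts, as the genes are few. fkbp8 fell by 0.56 and fkbp1aa by 0.30 on the log2 scale (limma, adjusted p = 0.00151 and 0.00584), beside fkbp4, and fkbp9 was higher by 0.58 (limma, adjusted p = 0.00833). fkbp8 encodes an isomerase of the mitochondrial membrane, and fkbp1aa a form of FKBP12, the binding protein of FK506. The median r of the family with fkbp5 was -0.20 in both genotypes, but 0.36 in GR-mutant brains without GR-mutant 2 and 3 and 0.21 in wild-type brains without wild-type 1 and 3. Of 23 tested genes for known partners and clients of FKBP51 in mammals, such as AKT, PHLPP and tau, 2 were lower and 1 higher, which is at the share of all tested genes (9.92% and 7.59%), with a median r of 0.15 in GR-mutant and 0.18 in wild-type brains (-0.32 and -0.18 without the 2 brains of each genotype farthest from the median of fkbp5). rps6kb1a, an S6 kinase gene, fell by 0.83 on the log2 scale (limma, adjusted p = 0.00746) and had an r of -0.52 in GR-mutant brains (exact permutation p = 0.293) and 0.86 in wild-type brains (exact permutation p = 0.0278).

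Of the 14 tested genes of the stress axis 2 were lower and 5 higher in GR-mutant brains, beside 9.92% and 7.59% of all tested genes. hsd11b2, which inactivates cortisol, fell by 1.79 on the log2 scale (SE 0.24, limma, adjusted p = 0.000289). hsd20b2, which converts cortisone further, had 121 to 148 normalised counts in GR-mutant brains and 288 to 1381 in wild-type brains, without overlap. Wild-type 1 and 2 were lowest for hsd20b2 as for fkbp5 (r = 0.82, exact permutation p = 0.0639). crha, a gene of the corticotropin-releasing hormone family, and pomcb were higher by 1.44 and 1.21 on the log2 scale (limma, adjusted p = 0.00685 and 0.00184). crha was low, at 25.1 normalised counts in its lowest wild-type brain and 205 in its highest GR-mutant brain. The median r of the list with fkbp5 was -0.49 in GR-mutant brains and 0.25 in wild-type brains, but 0.09 and 0.04 without the 2 brains of each genotype farthest from the median of fkbp5.

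Of 22 tested immediate-early genes, which mark recent neuronal activity, 13 were lower and 0 higher in GR-mutant brains by limma (0 higher also by edgeR, by DESeq2 and at an unadjusted p under 0.05), beside 9.92% and 7.59% of all tested genes. Their median r with fkbp5 was 0.17 in GR-mutant and -0.27 in wild-type brains (-0.23 and -0.12 without the 2 farthest brains of each genotype). Of 37 tested clock genes 17 were lower and 9 higher, beside 9.92% and 7.59% of all tested genes, with a median r of 0.03 in GR-mutant and 0.19 in wild-type brains (0.00 and -0.07 without those brains). cry3a, a cryptochrome gene, had an r of 0.92 with fkbp5 in wild-type brains (rho = 0.94, exact permutation p = 0.0208 and 0.0167) and was not called between genotypes (limma, adjusted p = 0.199). nr1d2a, a REV-ERB gene, fell by 1.95 on the log2 scale (SE 0.12, limma, adjusted p = 1.46e-07), with an r of 0.71 in wild-type brains (exact permutation p = 0.121).

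Cell type markers and technical measures were set beside fkbp5 in the same way, as 24 relations over both genotypes. None passed the correction, the smallest Benjamini-Hochberg adjusted exact permutation p being 0.828 for r and 0.267 for rho. In wild-type brains the summed level of the 10 tested endothelial markers ran against fkbp5 (r = -0.84, rho = -0.89, exact permutation p = 0.0375 and 0.0333, r = -0.78 without wild-type 1 and 3), with sums of 4122 to 4929 normalised counts. Of the 10 markers 7 had an r of at most -0.5, beside 17.2% of all tested genes, and none was at 0. In GR-mutant brains the endothelial sum had an r of -0.02 and a rho of -0.14 (exact permutation p = 0.975 and 0.803). Without GR-mutant 2 and 3 its r was -0.87, so the weak relation there rested on those brains. The summed neuronal markers ran with fkbp5 in wild-type brains (r = 0.68, rho = 0.89, exact permutation p = 0.150 and 0.0333, r = 0.44 without wild-type 1 and 3), with sums of 365676 to 394441 normalised counts. Of the 16 markers 11 had a positive r, beside 50.1% of all tested genes. In GR-mutant brains the neuronal sum had an r of -0.28 and a rho of 0.14 (exact permutation p = 0.663 and 0.803), but r was 0.61 without GR-mutant 2 and 3. No difference between genotypes is read from these relations.

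Between genotypes, the neuronal markers summed to 0.940 times the wild-type mean in GR-mutant brains (exact permutation p = 0.00433, adjusted p = 0.0260 over 12 measures), with 2 of 16 lower and 0 higher by limma, beside the 9.92% and 7.59% of all tested genes. DESeq2 called 5 of 16 lower and edgeR 2, and 0 were higher by either tool or at an unadjusted p under 0.05. The total of normalised counts was 0.944 times that of wild-type brains (exact permutation p = 0.00216, adjusted p = 0.0260). The neuronal sum thus fell by about the same factor as this total, and the neuronal share of the total was not tested. The endothelial sum was 1.21 times that of wild-type brains (exact permutation p = 0.0195, adjusted p = 0.0779), at 4355 to 6179 normalised counts in GR-mutant brains. Oligodendrocyte, radial glia, microglia, pituitary, blood, ependymal and fibroblast sums differed with an adjusted exact permutation p of 0.653 or more. The part of these differences in the level of fkbp5 was not tested.

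Over the remaining marker lists, the median r with fkbp5 in GR-mutant and wild-type brains was 0.49 and -0.21 for 10 oligodendrocyte markers, 0.22 and -0.08 for 10 of radial glia, -0.11 and -0.54 for 11 of microglia, 0.48 and 0.08 for 10 of pituitary, 0.12 and 0.02 for 5 of blood, -0.52 and -0.09 for 7 of ependyma and choroid plexus, and -0.39 and -0.36 for 7 of fibroblasts. Without the 2 brains of each genotype farthest from the median of fkbp5 several of these medians changed sign: in GR-mutant brains that of radial glia was -0.40, of pituitary -0.15 and of blood -0.17, and in wild-type brains that of oligodendrocytes was 0.13, of pituitary -0.50 and of ependyma 0.06. Ependymal markers ran against fkbp5 in GR-mutant brains by rank (rho = -0.94, r = -0.47, exact permutation p = 0.0167 and 0.289). ttr, a choroid plexus marker, was at 0 in 3 GR-mutant and 6 wild-type brains, and the microglial MPEG1 (ENSDARG00000078569) was at 0 in all 12. The sum of the microglial markers was 7350 to 20021 normalised counts in GR-mutant brains and 9824 to 14667 in wild-type brains.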

How the data were processed

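Bulk RNA-Seq of 12 brains was analysed from 1 deposited table per brain. Per the labels and methods, the authors trimmed reads (Trimmomatic), removed ribosomal RNA (SortMeRNA 2.1), aligned to GRCz11 (STAR) and divided the gene counts by DESeq2 size factors, so each deposited value is a signal, the normalised count. The sources used here do not state a strand setting. Values were whole multiples of the value of 1 read (100% within 0.001 reads), which returned the reads. No 2 libraries agreed in all genes, at least 24900 differing. Labels name separate fish as replicates. Depth of 24407683 to 37548901 reads limits precision by counting error only.

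The 20114 of 32520 genes that reached 10 normalised counts in 6 or more libraries were tested with limma 3.58.1, with a mean-variance trend, on log2(normalised count + 1), GR-mutant minus wild-type, without covariates, Benjamini-Hochberg adjusted over all of them. Fold changes are on that scale, which understates those of low genes. edgeR 4.0.16 and DESeq2 1.42.0 on recovered reads were alternatives, beside other scalings, filters, pseudocounts, a replicate block and leaving out each brain. Steps were tested on simulated data.

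Likeness to fkbp5 was Pearson's r within 1 genotype, with Spearman's rho and exact permutation p. Genes named for likeness had a symbol of their own and a mean of at least 50 normalised counts in that genotype: the 6 highest and 3 lowest r per genotype, the 8 with the highest smaller r and the 4 with the lowest larger r of both. Any member of the receptor complex and glucocorticoid-induced lists could be named, and from other lists those with the smallest p or highest r. The gene, the 16 lists and the tests were chosen with earlier results of these data known. Symbols came from a gene name table (29201 IDs), and where 6314 IDs shared one, the ID is given. Near-identical copies may share reads. No sequence is shown, as none of the files' genome build was used here.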

Additional observations from a re-analysis of the deposited data

Results flagged for a closer look

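In a group of 6 brains, a value was singled out when its gap to the nearest other exceeded Dixon's 95% critical share of the whole range, which chance does in about 1 of 20 groups. Of 230 combinations of a gene and a genotype, 21 passed. Some of these genes were named for their r with fkbp5 in the same brains or after their values were seen. The number that passed is therefore not set against 1 of 20. Only fkbp5 was also examined on the log2 scale. fkbp5 in GR-mutant 3 was 1989.8 normalised counts (ratio 0.757), and on the log2 scale the ratio was 0.546 and did not pass. In the same brain hspb15 (805.8) and ENSDARG00000102957 (3.30) were the highest of the GR-mutant brains, and PTGES3 (ENSDARG00000089626) (1233), bag1 (886) and ddit4 (469.8) the lowest.

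GR-mutant 2 was highest for cabz01033180.1 (151 normalised counts), nfkbiaa (435), cebpd (695), hsd20b2 (148) and the sum of the microglial markers (20021). GR-mutant 1 was highest for ppid (1406), and GR-mutant 4 lowest for kdrl (713).

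Wild-type 1, with the least fkbp5 of its genotype, was highest for zmat1 (915.8), pard3bb (236), lhx5 (560) and hsp70.3 (148), and lowest for fryl (4932) and foxo3b (3025). Wild-type 2 was highest for mertka (503), wild-type 3 lowest for tie1 (182), and wild-type 4 highest for PTGES3 (ENSDARG00000089626) (1507) and for the sum of the blood markers (7213). The causes of these values were not tested.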

How the results depend on the processing

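The fall of fkbp5 passed in all 22 alternatives, from -5.46 (without GR-mutant 3) to -4.81 (edgeR) on the log2 scale, with adjusted p from 7.77e-23 (DESeq2) to 0.000132. Leaving out each brain gave -5.46 to -4.92. The number of genes called was 2583 to 3485 with a brain left out, and 4335 with equal library totals, of which 3023 were higher and 1312 lower against 1527 and 1996 as reported, as this scaling moved the median of all genes to 0.09. The 51 wild-type followers called lower became 39 to 53 with a brain left out, and 40 with equal totals. The 9 GR-mutant followers called lower became 5 with equal totals (14 higher), 4 with the block and 5 without GR-mutant 2 or 5. These list and follower counts under other fits were chosen after seeing the data. Members called lower with a brain left out were 18 to 21 of the glucocorticoid-induced and 13 to 17 of the receptor complex list.

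The replicate numbers were used as a block as well. Same-numbered brains did not deviate together over all tested genes (r of -0.15 to 0.08 over 5 pairs, and none correlated best with its own number). A likeness limited to part of the genes was not tested. With the replicate block fkbp5 fell by 5.10 (adjusted p = 0.000132), and 2340 genes were called, 976 higher and 1364 lower.

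Likeness to fkbp5 depended on single brains. The number of genes at r of at least 0.9 was 226 to 472 in GR-mutant and 257 to 544 in wild-type brains with 1 of the 6 left out, since fewer brains give high r more often, and 144 genes reached it in GR-mutant brains by Spearman's rho. The median r of the glucocorticoid-induced list was -0.11 to 0.23 in GR-mutant brains (0.23 without GR-mutant 2) and 0.42 to 0.68 in wild-type brains, and 0.49 there by rho. The SD of fkbp5 in GR-mutant brains was 0.50 to 1.11, the lowest without GR-mutant 3. With 6 brains per genotype no r passed the correction over all genes, and ENSDARG00000102957 rests on at most 4 reads per GR-mutant library.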
